A study of Rattus norvegicus with 10 samples.

Results

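Hox genes encode homeodomain transcription factors that are grouped in 4 chromosomal clusters, Hoxa to Hoxd, and numbered within each cluster by paralog group from 1 to 13. The order of the genes along a cluster follows the order in which they are used along the body axis: genes of low number are expressed from the hindbrain backwards, and each gene of higher number begins further caudally. In the spinal cord the paralogs 4 to 8 mark brachial levels, paralog 9 thoracic levels, paralogs 10 and 11 lumbar levels and paralogs 12 and 13 the sacral and caudal end, and Hox proteins set motor neuron identity at each level together with Pbx, Meis and Foxp1. Part of this position code stays active in the adult cord, so that the mix of Hox mRNAs in a piece of cord depends on where along the axis it was cut.

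The members described here are all mRNA probes of the array whose RefSeq gene symbol was Hoxa, Hoxb, Hoxc or Hoxd followed by a number. There were 16 such probes, each of 1 spot and 1 gene, among 15323 mRNA probes and 24684 probes in all. The annotation table holds 39 Hox genes, of which 23 had no matched probe and were not analysed here. The probes covered 4 of 11 genes of the Hoxa cluster, 5 of 10 of Hoxb, 3 of 9 of Hoxc and 4 of 9 of Hoxd, and no gene of paralog groups 6 and 8.

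The samples were spinal cords of 10 male Sprague Dawley rats weighing 240 to 260 g, and the methods state that the lumbar enlargement was collected. Rats of the morphine tolerance group (MT, rats 1 to 5) received 10 μg of morphine in 10 μl intrathecally 2 times a day for 7 days, and rats of the normal saline group (NS, rats 6 to 10) received 10 μl of saline on the same schedule. By the methods, a further morning dose of morphine or saline was given on day 8, and the rats were anesthetized 1 hour later for tissue collection. Total RNA of each rat was hybridized to 1 one-colour array, with n = 5 per group. How the borders of the enlargement were set is not given in the sources used here. Arrays that shared a scan time were taken as 1 slide: slide 1 held MT rats 1, 3, 4 and 5, slide 2 held MT rat 2 and NS rats 6, 7 and 10, and slide 3 held NS rats 8 and 9. The share of spots well above background was 63.8% and 58.6% on the arrays of slide 3, against 77.4% to 83.9% on the other 8 arrays. Slide 3 stood apart, and results that rest on it are given with and without it. All levels are log2 intensities after quantile normalization. A level is compared only with the level of the same probe in other rats, since probes differ in brightness for reasons other than RNA amount.

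Of the RefSeq promoter windows, 3 are printed because their genes carry the pattern described below: Hoxd10 and Hoxa11, whose levels moved together from rat to rat, and Hoxa7, which was nearly level in all rats. Each is the 250 bases before the annotated start in GRCr8, 5′ to 3′ on the strand of the gene. Capitals mark AGGTCA on either strand, the half-site bound by retinoic acid receptors. The window of Hoxd10 is chr3:80001697-80001946 on the + strand, that of Hoxa11 is chr4:82676802-82677051 on the - strand, and that of Hoxa7 is chr4:82648242-82648491 on the - strand.
Hoxd10: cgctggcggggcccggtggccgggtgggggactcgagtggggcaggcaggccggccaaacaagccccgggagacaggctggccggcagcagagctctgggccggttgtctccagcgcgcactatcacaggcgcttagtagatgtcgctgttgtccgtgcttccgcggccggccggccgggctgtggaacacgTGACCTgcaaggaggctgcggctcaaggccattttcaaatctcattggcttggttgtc
Hoxa11: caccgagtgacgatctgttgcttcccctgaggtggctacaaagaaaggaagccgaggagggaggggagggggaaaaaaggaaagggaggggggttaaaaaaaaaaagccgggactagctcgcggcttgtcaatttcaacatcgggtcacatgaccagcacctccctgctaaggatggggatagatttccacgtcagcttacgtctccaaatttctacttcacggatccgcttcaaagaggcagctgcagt
Hoxa7: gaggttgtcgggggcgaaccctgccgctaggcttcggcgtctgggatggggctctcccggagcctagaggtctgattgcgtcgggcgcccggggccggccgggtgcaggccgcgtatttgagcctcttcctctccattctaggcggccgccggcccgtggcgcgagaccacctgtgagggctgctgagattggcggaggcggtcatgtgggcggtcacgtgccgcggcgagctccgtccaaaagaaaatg

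Besides AGGTCA, 3 other short words were searched on both strands. These were TTTATG, bound by caudal-type and posterior Hox proteins; TGACAG, bound by Meis proteins; and the core promoter word TATAAA. The Hoxd10 window held AGGTCA, read as TGACCT on the printed strand, and no other of the 4, so no match overlapped another. The windows of Hoxa11 and Hoxa7 held none of them. Among 33469 promoter windows of the same length, 14.1% held AGGTCA and 11.4% held TTTATG. The share was 15.8% for the Meis word and 12.9% for the core promoter word. The G and C content was 67.2% in the Hoxd10 window, 52.4% in the Hoxa11 window and 68.8% in the Hoxa7 window, against a median of 51.2% over all windows. These matches are a description of the sequence, and no binding was measured.

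Along the paralog order, most Hox mRNAs up to paralog 11 were measured in every rat, and those beyond it were dim or below background. A gene was called detected on an array where its spot was well above background. Of the probes of paralogs 1 to 3, Hoxd1, Hoxa2 and Hoxb3 were detected on all 10 arrays. Of paralogs 4 to 8, Hoxb4, Hoxc4, Hoxd4, Hoxa7 and Hoxb7 were detected on all 10 arrays and Hoxc5 on none. Hoxb9, Hoxd10 and Hoxa11 were detected on all 10 arrays. At the caudal end, Hoxc12 was detected on 4 arrays, those of MT rats 2 to 5, Hoxd13 on 5 arrays, all of MT, and Hoxb13 on none. Every MT array also had a larger share of all spots well above background, 81.1% to 83.9%, than every NS array, 58.6% to 79.6%. Detection in MT alone is therefore not read as a difference in RNA. The background-subtracted intensity of Hoxc12 was 11.99 in NS rat 7, where it was not detected, and 11.78 in MT rat 4, where it was. A filter that asked for detection on at least 5 arrays kept 13 of the 16 probes, or 81.2%, against 87.4% of all mRNA probes. The 3 that were not kept had background-subtracted intensities of 2.29 to 11.3 for Hoxc5, 8.08 to 17.5 for Hoxc12 and 1.85 to 3.75 for Hoxb13, and they were not tested. Both paralog groups of the lumbar cord, 10 and 11, were read by 1 probe each.

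**Figure D1:**
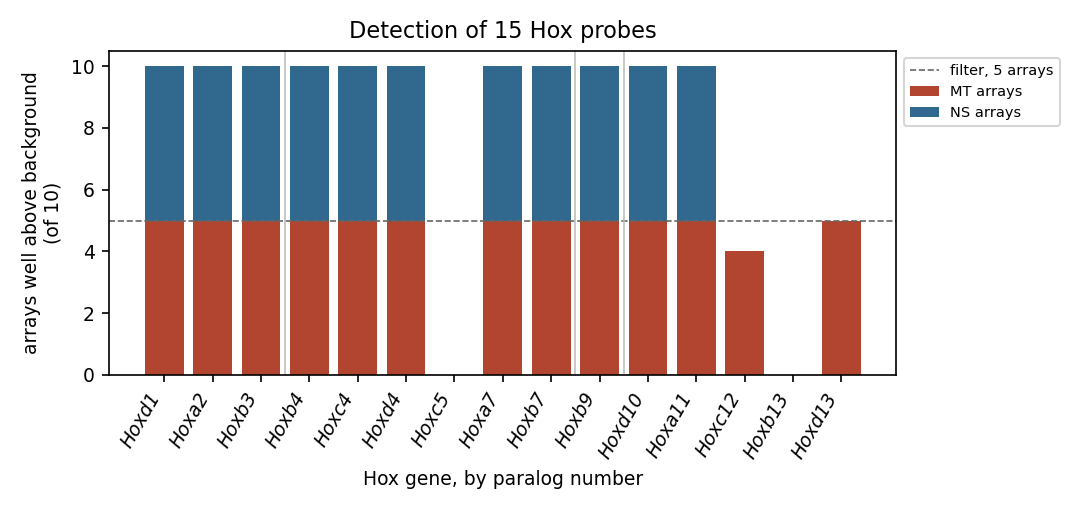
Number of arrays (y axis, of 10) on which each of 15 Hox probes was well above background, ordered by paralog number (x axis), with MT arrays in red and NS arrays in blue. Grey vertical lines part the bands 1 to 3, 4 to 8, 9 and 10 to 13, and the dashed line is the filter of 5 arrays. Of the plotted probes up to Hoxa11, only Hoxc5 misses any array, while Hoxc12, Hoxb13 and Hoxd13 are detected on 4, 0 and 5 arrays.

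Markers of the tissue were read in the same way. All 7 neuron markers with a probe and all 6 motor neuron markers with a probe passed the filter. Of 10 genes used for forebrain and midbrain position, 7 had a probe and all 7 passed it, with detection on 5 to 10 arrays. Among them, Neurod6 and Otx1 were detected on all 10.

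The rats differed most in the caudal Hox genes and least in paralog 7. The SD of a gene over the 10 rats had a median of 0.35 on the log2 scale over the 13 Hox mRNAs, against 0.23 over all 20284 RNAs tested. Hoxa7 and Hoxb7, which pattern the brachial and thoracic axis, had SDs of 0.14 and 0.11, and their levels spanned 0.35 in each case. The SDs of Hoxc4, Hoxb4 and Hoxd4 were 0.18, 0.32 and 0.36. Those of Hoxd1, Hoxb3 and Hoxa2 were 0.28, 0.35 and 0.37. Hoxb9 had 0.19. The 3 members of paralogs 10 to 13 had the 3 largest SDs of the 13, with 0.58 for Hoxd10, 0.81 for Hoxd13, which was not above background in NS, and 2.16 for Hoxa11.

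Hoxa11, a lumbar paralog that patterns motor columns and the limb, had the fifth largest SD of the 20284 RNAs. In MT rats 1 to 5 its log2 intensity was 10.03, 11.17, 4.41, 10.88 and 11.21. In NS rats 6 to 10 it was 11.15, 8.10, 10.15, 8.35 and 8.09. MT rat 3 lay far below all other rats, NS rats 7, 9 and 10 lay below the other 6, and the NS range lay inside the MT range. The whole range was 6.80 on the log2 scale, or 112-fold, and before normalization the background-subtracted intensity ran from 28.0 to 3081. The probe was well above background on all 10 arrays, so the low value of MT rat 3 was a measured level. In these bulk samples, fewer cells that express a gene and less RNA per cell cannot be told apart.

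Hoxd10, the neighbouring lumbar paralog that specifies motor neurons of the hindlimb, followed nearly the same order of rats with a smaller range. Its log2 intensity was 11.34, 11.94, 10.27, 11.84 and 12.13 in MT rats 1 to 5. The NS rats 6 to 10 had 11.86, 10.83, 11.36, 11.001 and 11.11. MT rat 3 was again the lowest and MT rat 5 the highest, with a range of 1.85 or 3.61-fold, and the groups overlapped. In 7 of the 10 rats the rank of Hoxd10 was the rank of Hoxa11.

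The variation of both genes was present within slides. Hoxa11 spanned 6.80 on the 4 arrays of slide 1, 3.08 on the 4 arrays of slide 2 and 1.80 on the 2 arrays of slide 3. Hoxd10 spanned 1.85, 1.12 and 0.36 on them. MT rat 3 had the largest share of spots above background of the 10 arrays, 83.9%.

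**Figure D2:**
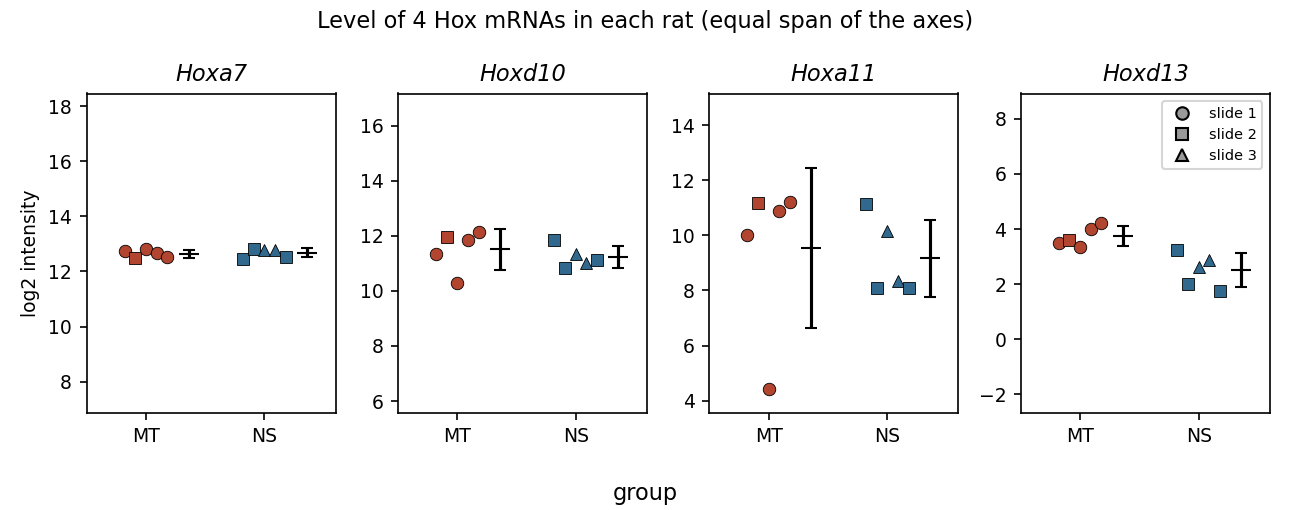
Log2 intensity (y axis) of Hoxa7, Hoxd10, Hoxa11 and Hoxd13 in each rat by group (x axis), with the slide shown by the marker and the mean ± SD of 5 rats in black. The 4 axes span the same number of log2 units but have different origins. Hoxa7 stays within 0.35 while Hoxa11 spans 6.80, with MT rat 3 at 4.41.

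Hoxd13, a gene of the sacral and caudal end, was dim everywhere. The log2 intensity was 3.48, 3.60, 3.36, 4.02 and 4.23 in MT rats 1 to 5, all well above background. It was 3.26, 2.01, 2.63, 2.89 and 1.75 in NS rats 6 to 10, none well above background. In these normalized values the MT rats were all higher than the NS rats. Before normalization the groups overlapped, with a background-subtracted intensity of 14.979 in NS rat 6 and 14.001 in MT rat 3. The other MT rats lay above NS rat 6, and NS rats 7 to 10 had 2.31 to 4.17. The gene passed the filter only through the MT arrays, which favours a higher value in MT, so the direction is not read as a result. Detection in MT alone did not force it. Hoxc12, detected only in MT, had a log2 fold change of -0.26 when no filter was used. For a cautious estimate, each NS array was given the larger of its own Hoxd13 value and its dimmest signal well above background. MT was then 1.23-fold higher in the main processing. Spots that were not called can lie above that signal, so 1.23 is not a strict lower bound. The value holds for that processing alone, shares the limit of the filter and was not tested.

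Across the 78 pairs of the 13 Hox mRNAs, the closest relation over the 10 rats was that of Hoxd10 and Hoxa11. The values of a rat share 1 array, 1 slide and 1 normalization. Pearson's r was 0.953 (permutation p = 1e-05, the smallest that 100000 resamples can give; adjusted over the 78 pairs p = 0.00078) and Spearman's rho was 0.964 (permutation p = 5e-05, adjusted p = 0.0039). Without MT rats 3 and 5, the farthest from the median of Hoxd10, r was 0.952, and without the 2 arrays of slide 3 it was 0.963. Within groups, r was 0.971 over the 5 MT rats and 0.944 over the 5 NS rats, and it was 0.968 and 0.976 on slides 1 and 2. These within-group and within-slide values rest on 4 or 5 rats and are given without a test. Under 75th percentile scaling, normexp background correction and the deposited table, which were added after the values were seen, r was 0.961, 0.969 and 0.951.

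The rostral members formed a second set of relations. Hoxc4 and Hoxa7 had r = 0.854 (permutation p = 0.00109, adjusted p = 0.0417) and rho = 0.915 (adjusted p = 0.0140). Hoxa7 and Hoxb7 had r = 0.854 (permutation p = 0.00178, adjusted p = 0.0417) and rho = 0.855 (adjusted p = 0.0388). Leaving out the 2 rats farthest from the median of the first gene gave r = 0.933 and r = 0.740. Hoxa2 with Hoxc4 and Hoxc4 with Hoxb9 passed for r, at 0.833 and 0.839 (permutation, adjusted p = 0.0417 each), and missed for rho, with adjusted p = 0.0926 and 0.130. The relation of Hoxc4 with Hoxb9 was 0.0705 under 75th percentile scaling and 0.480 without its 2 farthest rats, so it rests on the scaling and on those rats. Hoxd13 is left out of the following counts because its NS values are below background. Of the 66 pairs without it, 5 passed for r, 4 for rho and 3 for both, also when adjusted over the 66 alone.

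The relations of Hoxd10 with Hoxa7, Hoxb7 and Hoxc4 were negative. Hoxd10 had r = -0.761 with Hoxa7, -0.758 with Hoxb7 and -0.772 with Hoxc4 (permutation, adjusted p = 0.111, 0.108 and 0.101), which did not pass for r. By ranks, Hoxa7 and Hoxd10 passed with rho = -0.867 (permutation p = 0.00228, adjusted p = 0.0388). Within groups r of Hoxa7 with Hoxd10 was -0.862 in MT and -0.722 in NS, and on slides 1 and 2 it was -0.916 and -0.853. For Hoxd13, r is given as a description only, since the gene was kept through its MT values and its NS values are not measured levels. It was -0.817 with Hoxb9 over the 10 rats, -0.606 with each group centred on its mean, and 0.0786 over the 10 rats under 75th percentile scaling. With Hoxa11 and Hoxd10 it was 0.418 and 0.561 over the 10 rats.

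**Figure D3:**
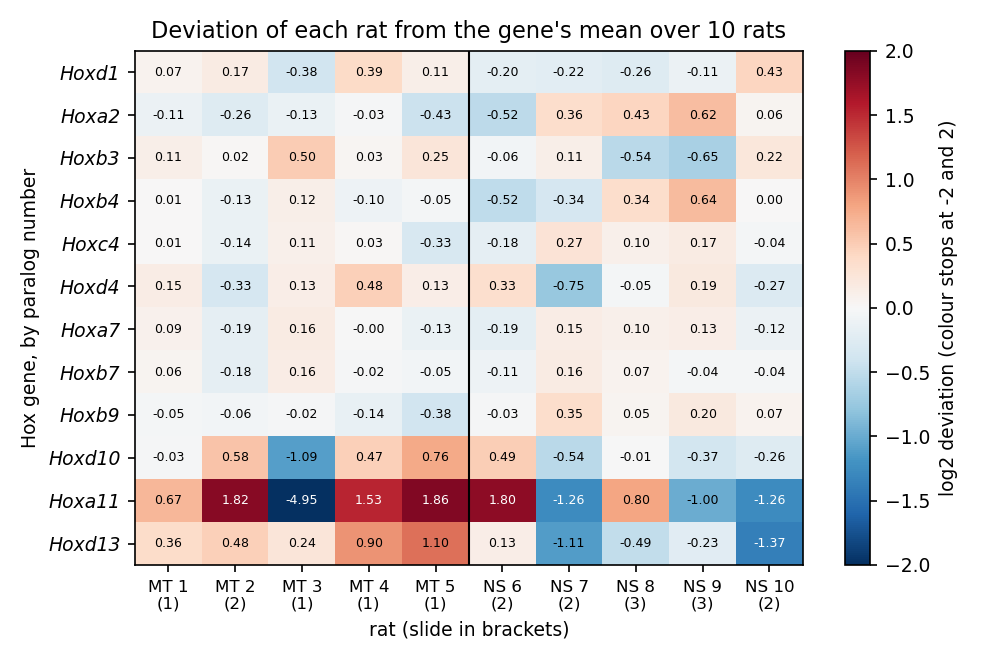
Deviation of the log2 intensity in each rat (columns, with the slide in brackets, MT left and NS right of the line) from the mean of that gene over the 10 rats, for 12 of the 13 Hox mRNAs that passed the filter (rows, by paralog number). Colours stop at -2 and 2. The rows of Hoxd10 and Hoxa11 share their pattern, with MT rat 3 at -1.09 and -4.95, and the rows of Hoxa7 and Hoxb7 stay between -0.19 and 0.16.

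As a check of dissection level, the deviations were averaged over bands of paralog numbers in each rat. The mean deviation of paralogs 1 to 3 ranged over 0.49 on the log2 scale from the lowest to the highest rat, that of paralogs 4 to 8 over 0.41, that of paralog 9 over 0.73 and that of paralogs 10 to 13 over 3.17. The mean of paralogs 10 to 13 minus that of paralogs 4 to 9 gives a caudal minus rostral difference for each rat. This was 0.29, 1.13, -2.05, 0.93 and 1.37 in MT rats 1 to 5. It was 0.92, -0.94, -0.01, -0.75 and -0.90 in NS rats 6 to 10. MT rat 3 was the most rostral by this measure and MT rat 5 the most caudal, and the groups overlapped. In these terms rostral and caudal name only the paralog numbers. The group means were 0.33 ± 1.39 for MT and -0.33 ± 0.80 for NS (SD, n = 5 each). The difference of 0.67 was smaller than the SD of the MT rats, and it was 1.26 without MT rat 3 and 0.40 without MT rat 5. It depends in part on the filter, because Hoxd13 was kept only through the MT arrays. Without Hoxd13 the means were 0.18 ± 1.91 and -0.18 ± 0.94, a difference of 0.36, with MT rat 3 still the lowest at -3.13 and MT rat 5 the highest at 1.44. Since Hoxa11 had a much larger range than the other members, the measure was also taken without it. That gave 0.40 ± 0.62 and -0.40 ± 0.50, a difference of 0.79 that was larger than either SD but in which Hoxd13 is 1 of only 2 caudal genes. NS rats 7 and 10 were then lowest, at -0.80 and -0.75, below MT rat 3 at -0.54. Without both genes, which leaves Hoxd10 as the caudal gene, the means were 0.16 ± 0.85 and -0.16 ± 0.47, with a difference of 0.32 and MT rat 3 lowest at -1.20. Because the measure is a mean over chosen genes, it was not tested.

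**Figure D4:**
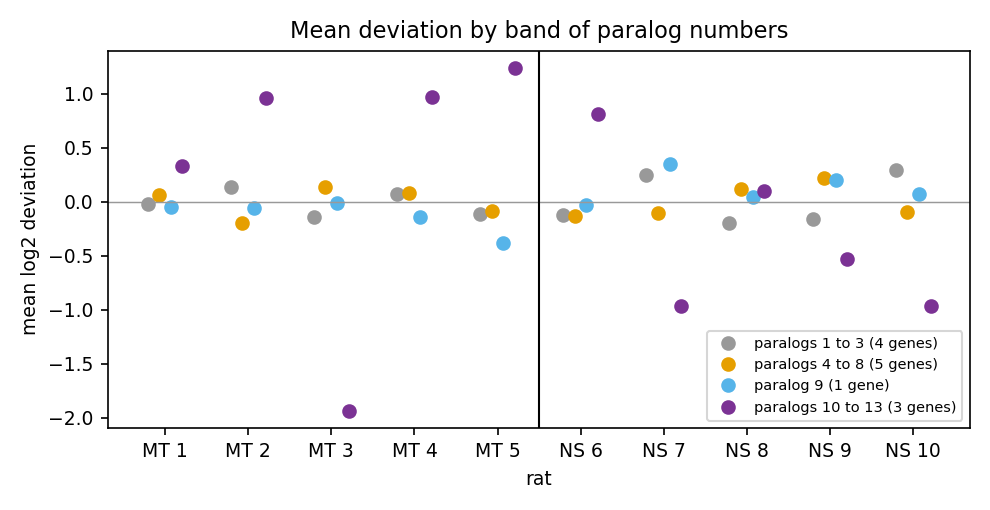
Mean log2 deviation (y axis) of the Hox mRNAs of 4 bands of paralog numbers in each rat (x axis), MT left and NS right of the line. The bands 1 to 3, 4 to 8 and 9 stay between -0.38 and 0.35, while paralogs 10 to 13 run from -1.94 in MT rat 3 to 1.24 in MT rat 5.

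Levels of cell type markers also differed between rats, in the neuron lists given here and in others. The widest spans of the mean deviation were in other lists. Meningeal fibroblast markers ran from -0.93 in NS rat 10 to 0.52 in NS rat 6. Neutrophil markers, of which only 2 of 6 were tested, S100a8 and Camp, ran from -0.97 in NS rat 6 to 0.94 in MT rat 5. Of the 8 motor neuron markers, 6 had a probe and were tested. Their mean deviation was 0.02, 0.34, -0.37, 0.37 and 0.19 in MT rats 1 to 5 and 0.10, -0.46, 0.18, -0.10 and -0.27 in NS rats 6 to 10. It was lowest in NS rat 7 and MT rat 3 and highest in MT rats 4 and 2. Their summed linear level was 27829 to 51961 in MT and 27518 to 45149 in NS, and each of the 6 was well above background on at least 8 arrays. Markers of dorsal root ganglion neurons, of which 5 of 8 had a probe and 4 were tested, had mean deviations of 0.10, 0.28, -0.27, 0.35 and 0.27 in MT and 0.42, -0.40, 0.03, -0.53 and -0.26 in NS, with summed levels of 9497 to 24708 and 9144 to 15857. These rest mainly on Calca, whose RNAs had mean levels of 12.8, 12.7 and 3.24. Scn10a, Scn11a and Trpv1 had 3.33, 3.51 and 5.75, and were well above background on 8, 6 and 10 arrays. The log2 fold change was 0.65, 0.62 and 0.72 for the Calca RNAs, 0.13 for Scn10a, -0.42 for Scn11a and 0.07 for Trpv1. As the list rests on Calca and its genes differ in direction, it is not read as a measure of ganglion tissue. The part of either cell type in the levels of Hoxd10 and Hoxa11 was not tested.

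MT was then compared with NS, the contrast of the study. None of the 13 Hox mRNAs passed an adjusted p of 0.05 by limma, where 0.197% of all RNAs did. At an unadjusted P below 0.05, 2 of the 13 passed, Hoxd13 and Hoxb9, against a background of 16.4%. The screening criterion, a fold change of more than 1.5 on the linear scale at an unadjusted P under 0.05, was met by 1, Hoxd13, with a background of 2.74% in either direction and 1.74% with MT higher. That background split depended on the scaling, with MT higher in 63.6% of the RNAs that met it here and in 86.3% under 75th percentile scaling. Groups that did not overlap after normalization were seen for 1 member, again Hoxd13, which was kept only through its MT arrays. The share of all RNAs was 5.60% in either direction and 2.31% with MT higher. The median log2 fold change was -0.02 over the 13 members and -0.00 over all RNAs, and 6 members were higher in MT and 7 lower. Under 75th percentile scaling 8 were higher, with a median of 0.19 beside 0.07 over all RNAs.

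**Figure D5:**
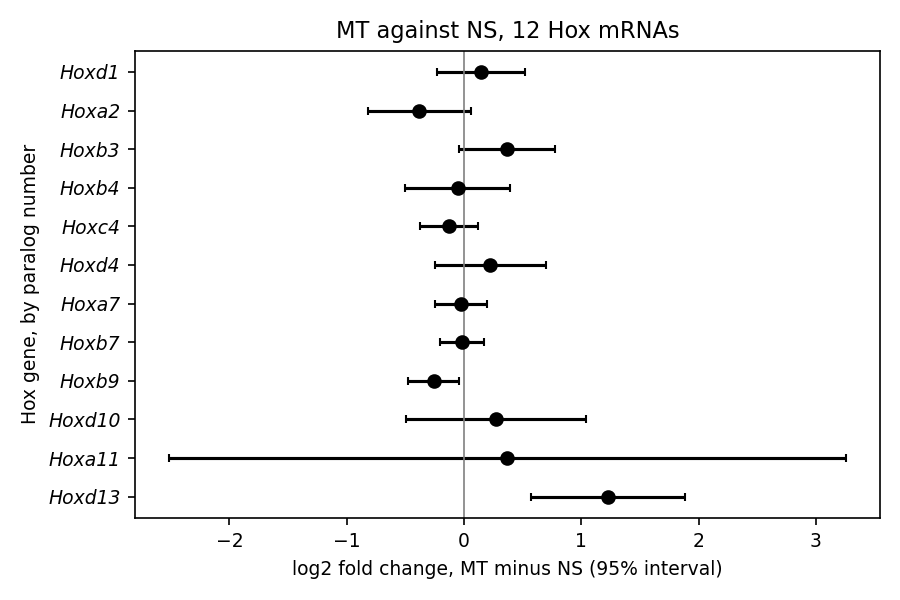
Log2 fold change of MT against NS (x axis) with its 95% interval from limma, for 12 of the 13 Hox mRNAs that passed the filter (y axis, by paralog number). Hoxa11 has the widest interval, from -2.52 to 3.26, and the intervals of Hoxb9 and Hoxd13 do not cover 0. Hoxd13 passed the filter only through the MT arrays, so the side of its interval was favoured by the filter.

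Hoxd13 had a fitted log2 fold change of 1.23 (SE 0.29; limma adjusted p = 0.115), which carries the limit on its NS values given above. On slide 2, the only one that held both groups, MT rat 2 had 3.60 and NS rats 6, 7 and 10 had 3.26, 2.01 and 1.75. With normexp background correction the fold change was 0.20, and with the slide as a fixed block it was 1.26, and in neither case did Hoxd13 meet the criterion.

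Hoxb9, which acts at thoracic levels, had a log2 fold change of -0.26 (SE 0.10; limma adjusted p = 0.250). The MT rats 1 to 5 had 5.28, 5.27, 5.31, 5.19 and 4.95, and the NS rats 6 to 10 had 5.30, 5.68, 5.38, 5.53 and 5.40. The groups overlapped by MT rat 3 and NS rat 6 alone. The difference was 0.02 under 75th percentile scaling, so its direction rests on the normalization.

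Neither lumbar paralog passed. Hoxa11 had a log2 fold change of 0.37 (SE 1.29, 95% interval -2.52 to 3.26; limma adjusted p = 0.905), so that differences of several log2 units in either direction lie inside the interval. Hoxd10 had 0.27 (SE 0.34, 95% interval -0.49 to 1.04; limma adjusted p = 0.714). Single rats moved both values. For Hoxd10 the log2 fold change was 0.58 without MT rat 3 (limma adjusted p = 0.294), with an unadjusted P under 0.05, and 0.43 without NS rat 6. It was 0.12, 0.16 and 0.17 without MT rat 5, MT rat 2 and NS rat 7. Hoxa11 had 1.67 once MT rat 3 was dropped (limma adjusted p = 0.302), with an unadjusted P under 0.05, and without MT rat 2, 4 or 5 it was close to 0, at -0.047, 0.030 and -0.050.

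The remaining members showed small differences. In the hindbrain and cervical paralogs, Hoxa2, which patterns the second branchial arch and hindbrain, had -0.38 (SE 0.20; limma adjusted p = 0.363), and Hoxb3 had 0.37 (SE 0.18; limma adjusted p = 0.350). NS rats 8 and 9 of slide 3 held the highest Hoxa2 and the lowest Hoxb3 values, and without that slide the log2 fold changes were -0.16 and 0.087. Hoxd4, the most variable of paralogs 4 to 8, had 6.17, 5.68, 6.15, 6.50 and 6.14 in MT and 6.35, 5.26, 5.97, 6.20 and 5.74 in NS, with a log2 fold change of 0.22 (SE 0.21; limma adjusted p = 0.622). Hoxa7 and Hoxb7 had -0.03 and -0.02, with 95% intervals of -0.25 to 0.20 and -0.20 to 0.17. The log2 fold changes of Hoxd1, Hoxb4 and Hoxc4 were 0.14, -0.05 and -0.13, or 0.067, 0.25 and -0.082 without slide 3, and those of Hoxb3, Hoxb4, Hoxd4, Hoxa7 and Hoxb7 turned sign under at least 1 alternative.

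The other genes of the Hox pathway were taken as 4 lists of 44 genes, of which 33 were measured as 35 RNAs. None passed an adjusted p of 0.05 by limma. At an unadjusted P of 0.05, 5 of the 35 passed, a share below the 16.4% of all RNAs that passed in either direction. All 5 were higher in MT, and 2 of them were RNAs of Rarg. The share of all RNAs with MT higher alone was not taken, and the same 16.4% stands beside the counts of the single lists below. The fold criterion was met by 1, with a background of 2.74%. The median log2 fold change over the 35 RNAs was 0.12.

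Of the cofactors, the Pbx, Meis and Pknox homeodomain proteins that bind DNA with Hox proteins and Foxp1, which works with them in limb motor neurons, 1 of 9 RNAs passed an unadjusted P of 0.05, the measure used for each of the lists. Foxp1 had 10.80, 10.77, 10.80, 10.90 and 10.76 in MT rats 1 to 5 and 10.69, 10.58, 10.74, 10.65 and 10.47 in NS rats 6 to 10. The groups did not overlap and the log2 fold change was 0.18 (SE 0.07; limma adjusted p = 0.247). The median of the list was 0.12.

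Of the inducers, the Cdx proteins and the retinoid pathway that switch on Hox genes in the embryo, 3 of 8 RNAs passed. Of these, 2 were RNAs of Rarg, and the median of the list was 0.38. Both RNAs of Rarg, a retinoic acid receptor, were higher in all MT rats than in all NS rats. The first ran from 8.99 to 9.27 in MT and from 8.44 to 8.82 in NS, with a log2 fold change of 0.49 (SE 0.09; limma adjusted p = 0.0633). The second had 0.47 (SE 0.09; limma adjusted p = 0.0687). Over the alternatives the adjusted p of the first by limma ran from 0.0353 to 1.00, the highest with the slide as a fixed block. The 2 RNAs are transcripts of 1 gene and are not independent. Cyp26b1, which degrades retinoic acid, had 7.46, 7.81, 7.24, 7.63 and 7.95 in MT and 7.82, 6.43, 7.42, 6.53 and 6.45 in NS, with a log2 fold change of 0.69 (SE 0.29; limma adjusted p = 0.278) and overlapping groups. Its high and low NS rats were those of Hoxa11, with NS rats 6 and 8 above NS rats 7, 9 and 10.

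Among the chromatin regulators that hold Hox genes silent or active, none of 12 Polycomb RNAs passed, with a median of -0.01 and an SD over the rats of 0.06 to 0.61. Of 6 RNAs of the Trithorax group and the H3K27 demethylases, 1 passed, with a median of 0.14. Kmt2a, the methyltransferase that maintains Hox expression, had 11.75, 11.63, 11.82, 11.69 and 11.81 in MT and 11.45, 11.29, 10.90, 10.87 and 11.48 in NS. The groups did not overlap, the lowest values were those of NS rats 8 and 9 on slide 3, and the log2 fold change was 0.54 (SE 0.13; limma adjusted p = 0.120). Without slide 3 it was 0.34, and with the slide as a fixed block 0.22.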

How the data were processed

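Arrays were read with Agilent Feature Extraction 11.0.1.1, and the authors deposited the linear, background-subtracted intensity of every spot with its flags. The authors also deposited quantile-normalized log2 values, used only as an alternative. The build of the probes differs from GRCr8, so genes were named by RefSeq accession alone, which covered 14274 of 15323 mRNA probes. Intensities were floored at 1, taken to log2 and quantile normalized in limma 3.58.1 (R 4.3.3, data.table, version 1.17.8). Spots marked as outliers were dropped, after which replicate spots and then probes of the same RNA were averaged. The filter required more than 50% of the spots of a probe to be well above background on 5 or more of 10 arrays. Group differences came from linear models with empirical Bayes moderation in limma. Adjusted p refers to the Benjamini-Hochberg procedure over 20284 RNAs. The criterion in the methods was read as 1.5-fold on the linear scale with P under 0.05. The number of arrays limits the precision. Whether rats of a group shared more than a slide is not given in the sources used here. Correlations over rats used 100000 permutations in Python 3.11.15, and figures used matplotlib 3.10.9.

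The members and lists were chosen with earlier results of these data known. Values per rat are given for kept Hox genes of paralogs 8 to 11, for those past an unadjusted P of 0.05 or 1.5-fold, for the most variable member of each band, and for up to 4 members of each pathway list past P of 0.05. The values of 1 Hox gene, which is counted in all totals and means, are not reported here. Alternatives were 75th percentile scaling, normexp on the median signal with an offset of 50, the deposited log2 values, other filters, single probes, outlier spots kept, the methods' t-test, a variance trend, the slide as a block or left out, and each rat left out. On simulated arrays with the same group sizes and 20221 RNAs, limma called 145 of the 200 RNAs that were shifted by 1 on the log2 scale, and 5 that were not. The noise was drawn independently for each RNA with no slide effect, so these counts do not cover the slides. Tail flick, RT-qPCR and lncRNA data were not used here.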

Additional observations from a re-analysis of the deposited data

Results flagged for a closer look

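Of 44 groups of 5 rats that were examined for a value far from the rest, 3 held one, and chance gives about 1 in 20. Hoxa11 in MT rat 3 was 4.41 on the log2 scale, where the nearest MT rat had 10.03 and the highest 11.21. The mean deviation of paralogs 10 to 13 in the same rat was -1.94, with the nearest MT rat at 0.33, and it holds the same Hoxa11 value. Hoxd1 in NS rat 10 was 9.31, with the nearest NS rat at 8.77 and the lowest at 8.62. The cause of each was not tested.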

How the results depend on the processing

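No paired analysis was possible because the rat numbers 1 to 10 are not shared between the groups. No Hox mRNA passed an adjusted p of 0.05 by limma in the main setting or under any of the 22 alternatives. The count past an unadjusted P of 0.05, 2 of 13, was 1 under 75th percentile scaling, normexp, the filter on all arrays, the variance trend and the random slide block, 0 with the fixed slide block, and 1 to 4 with each rat left out in turn, with 1 without MT rat 5 or NS rat 9. The 4, without MT rat 3, were Hoxa11, Hoxb9, Hoxd10 and Hoxd13. The count past 1.5-fold, 1, was 0 with normexp, the filter on all arrays and the fixed slide block, and 1 to 2 with each rat left out. It was 2 without a filter, where Hoxb13 was added with no array above background. The log2 fold change of Hoxb13 was -0.74, lower in MT and opposite to that of Hoxd13. Of the pathway RNAs, the count past an adjusted p of 0.05, 0, was 1 with normexp and 2 with the filter on all arrays and the variance trend, all Rarg. The count past an unadjusted P of 0.05, 5, was 11 with 75th percentile scaling, 8 in the deposited table, 10 without slide 3, 2 with the fixed and 3 with the random slide block, and 4 to 8 with each rat left out, 8 without NS rat 8. The fixed slide block takes its group difference from slide 2 alone, the only slide with both groups.

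No difference between the groups that turned sign had passed an adjusted p. With 75th percentile scaling Hoxb9 became 0.017, and the r of Hoxb9 and Hoxd13 became 0.0786. With the fixed slide block Hoxb3 became -0.073, Hoxb4 0.16 and Hoxd4 -0.10. Without slide 3 Hoxb4 became 0.25 and Hoxa7 0.043. With each rat left out, Hoxa7 ran from -0.078 to 0.017, Hoxb7 from -0.058 to 0.027, Hoxb4 from -0.19 to 0.10 and Hoxa11 from -0.050 to 1.67. The cause was not tested. The caudal minus rostral difference between the groups, 0.67, moved by less than 1 pooled SD under all 19 alternatives. That SD, 1.13, is larger than the difference, so this cannot tell a stable difference from none. With each rat left out, the difference ran from 0.40 without MT rat 5 to 1.26 without MT rat 3. The measure was not taken without a filter or with the filter on all arrays. The group difference was 0.79 with Hoxa11, 0.36 with Hoxd13 and 0.32 with both left out, alternatives added after the data were seen. The count of detected Hox genes, 13, was 11 on all 10 arrays and 14 on at least 1. Cyp26b1 met the fold criterion under 10 of 21 alternatives and Hoxd13 under 19 of 21. The direction of Hoxd13 was favoured by the filter, so its 19 is no measure of stability. The filter on all arrays dropped Hoxd13 and is not among its 21.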

Other observations

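Among 20220 other RNAs with a value on every array, 51 had a Pearson r above 0.9 with Hoxa11 over the 10 rats and 4 had one below -0.9. The choice of these RNAs followed from the values, the arrays share slides, and no test is given. Hoxd10 ranked 5 and Hoxd13 ranked 3811 by r. Of the 51, 2 had an SD above 1. One, with the identifier NM_001109234, was not named by the annotation table (r = 0.950, rho = 0.988), and ran from 3.78 in MT rat 3 to 8.36 in MT rat 5. The other was Erhl1 (r = 0.932, rho = 0.988, SD 1.26). Others were Polr3g, a subunit of RNA polymerase III, with r = 0.961, and Lhx2, a LIM homeodomain factor, with r = 0.952 and 8 of 10 arrays above background. For Lhx2 the level was 3.07 in MT rat 3 and 5.41 in MT rat 5.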
